A study of Homo sapiens with 8 samples.

Results

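The genes described here are the cadherins *CDH1*, *CDH2* and *CDH3*, the surface protein *EPCAM*, vimentin (*VIM*), fibronectin (*FN1*) and the transcription factors *ZEB1*, *SNAI1*, *SNAI2* and *TWIST1*. They were chosen by symbol as genes of the cadherin switch and of the epithelial to mesenchymal transition (EMT), and all 10 were found among the 13842 genes measured. The choice was made with earlier results of these data known, so counts set beside the share of all genes are descriptions. RNA-seq was performed on MCF10A, a line of non-tumorigenic breast epithelium, and on DCIS.COM, a line derived from the MCF10 series that models ductal carcinoma in situ. Each line was stably transduced with the lentiviral vector pLOC, either empty (pLOC-empty) or carrying the lncRNA *MALINC1* (pLOC-*MALINC1*), and selected with blasticidin, so the controls carry the vector and the selection too. There were 2 libraries in each of the 4 groups. MCF10A was grown in horse serum with epidermal growth factor, hydrocortisone, insulin and cholera toxin, and DCIS.COM in horse serum without these additions, so that line and medium cannot be told apart. The sources used here do not say whether the 2 libraries of a group came from separate cultures or transductions, and p-values therefore measure only the spread between these libraries, which may be technical.

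Epithelial cells hold on to each other through E-cadherin, the product of *CDH1*, whose intracellular tail binds catenins and through them the actin cytoskeleton. In EMT the transcription factors of the Snail, ZEB and TWIST families lower *CDH1* and other junction genes, while N-cadherin (*CDH2*), vimentin and fibronectin increase, and this exchange of cadherins is called the cadherin switch. In the mammary gland P-cadherin (*CDH3*) and *SNAI2* belong to the basal layer, so that their presence alone does not mark a mesenchymal cell.

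The promoters of *FN1*, *VIM* and *CDH2* are shown because these genes had the larger changes among the mesenchymal members. RefSeq promoter windows were matched for 4 of the 10 genes, *FN1*, *VIM*, *CDH2* and *ZEB1*. Each sequence holds the 250 bases before a start site in GRCh38.p14, on the strand of the gene, at chr2:215436069-215436318 (minus strand) for *FN1*, chr10:17227991-17228240 (plus strand) for *VIM* and chr18:28177131-28177380 (minus strand) for the first of the *CDH2* windows. Capitals mark matches, on either strand, to an E-box (CAGGTG, the core bound by Snail and ZEB factors), the AP-1 element (TGACTCA), the CRE (TGACGTCA) and the GC box (GGGCGG).
FN1: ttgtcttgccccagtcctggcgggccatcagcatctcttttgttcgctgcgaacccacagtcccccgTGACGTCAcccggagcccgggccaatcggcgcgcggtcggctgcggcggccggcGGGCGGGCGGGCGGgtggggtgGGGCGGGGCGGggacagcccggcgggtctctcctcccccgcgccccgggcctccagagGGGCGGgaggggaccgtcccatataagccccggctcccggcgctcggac
VIM: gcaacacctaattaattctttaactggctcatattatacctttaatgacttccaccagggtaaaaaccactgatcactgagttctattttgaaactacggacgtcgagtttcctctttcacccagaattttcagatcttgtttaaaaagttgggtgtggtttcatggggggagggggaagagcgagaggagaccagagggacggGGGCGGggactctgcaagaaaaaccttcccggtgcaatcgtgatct
CDH2: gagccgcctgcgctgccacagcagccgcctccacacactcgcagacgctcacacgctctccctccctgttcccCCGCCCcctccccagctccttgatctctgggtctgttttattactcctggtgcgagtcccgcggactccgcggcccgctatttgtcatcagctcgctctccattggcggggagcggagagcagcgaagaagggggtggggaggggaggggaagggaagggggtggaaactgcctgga
The *FN1* sequence held 1 CRE, starting 183 bases before the start site, and 6 GC boxes, some of which overlap. The *VIM* and *CDH2* sequences each held 1 GC box, 46 and 177 bases before the start site. No E-box and no AP-1 element matched in these 3 sequences. Of 35116 RefSeq windows of this length, 1.65% held the CRE, 42.6% the GC box, 17.5% the E-box and 4.20% the AP-1 element. The *ZEB1* windows are not shown and also take in 50 bases after the start site. A *ZEB1* window held 1 E-box, 57 bases before its start site, another held 3, and the remaining *ZEB1* windows held none. Of all RefSeq windows with these 50 bases included, 20.6% held the E-box.

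Between 20604377 and 37550457 reads per library were recovered from the deposited values, and the libraries of a group correlated at 0.996 to 0.997. *MALINC1* stood at 1.25 ± 0.357 CPM (reads scaled to a common library size, mean ± SD, n = 2) in MCF10A pLOC-empty and 12.5 ± 1.05 in pLOC-*MALINC1*, and at 1.25 ± 0.146 and 21.8 ± 3.76 in DCIS.COM, as labelled. All 6 basal and 6 of 8 luminal epithelial markers were measured in both lines. The basal markers summed to between 26539 and 35763 CPM in MCF10A and to between 2265 and 2475 CPM in DCIS.COM, and the luminal ones to between 1290 and 1655 CPM and between 3252 and 3502 CPM. In MCF10A the basal sum was mostly that of the keratins *KRT5*, *KRT6A* and *KRT17* (6149, 8865 and 9985 CPM with pLOC-empty). With pLOC-empty 5 of the 6 basal markers were lower in DCIS.COM. The other, *TP63*, was higher, at 56.6 CPM against 4.92 CPM in MCF10A. The part of these marker levels in the results that follow was not tested. Of 8 fibroblast markers *COL1A1* alone was in the table, at 15.9 CPM or less, and *PDGFRA*, *LUM*, *DCN* and *THY1* were not. The leukocyte markers in the table, *CD14* and *CD68*, summed to 14.3 CPM or less, and the endothelial marker *PECAM1* reached 7.21 CPM.

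A gene is said here to rise or fall where limma gave a Benjamini-Hochberg adjusted p below 0.01 over all genes, and to be a DEG where the change was also over 2-fold, which are the thresholds of the study. With *MALINC1*, 2 of the 10 genes were DEGs in MCF10A, *CDH2* and *FN1*, and both fell. The only DEG among them in DCIS.COM was *SNAI2*, which fell. Over all genes tested 5.50% were DEGs in MCF10A, 2.99% higher and 2.51% lower, and 4.53% in DCIS.COM, 1.44% higher and 3.08% lower. Without the fold threshold the 10 genes gave 7 changes in MCF10A (39.6% of all genes did so) and 5 in DCIS.COM (33.2% of all genes).

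**Figure D1:**
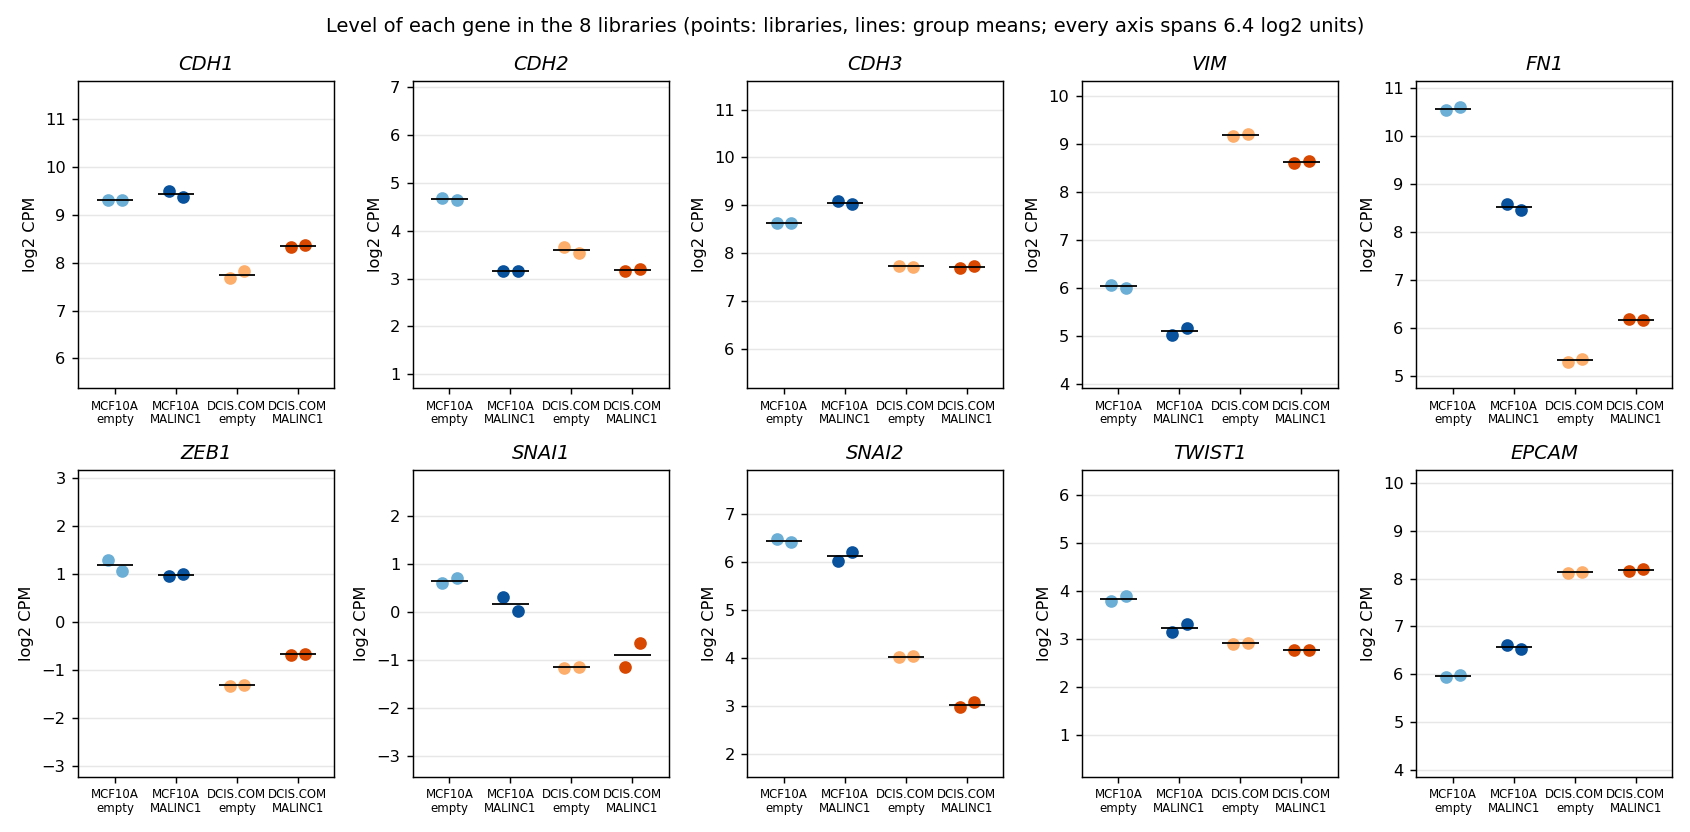
Level of each of the 10 genes in the 8 libraries, in log2 CPM as deposited (vertical axis, 6.4 log2 units in every panel), by line and vector (horizontal axis). Points are libraries and lines are group means. *FN1* lies at 10.54 and 10.60 in MCF10A pLOC-empty and at 5.29 and 5.36 in DCIS.COM pLOC-empty, and *VIM* and *EPCAM* lie higher in every DCIS.COM library.

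*CDH1* lies on the plus strand of chromosome 16 in GRCh37, from 68771195 to 68869440, next to *CDH3*, from 68670092 to 68761371. *CDH1* was at 631 and 632 CPM in MCF10A pLOC-empty and at 717 and 661 CPM in pLOC-*MALINC1*. In DCIS.COM it was at 206 and 225 CPM with pLOC-empty and at 319 and 331 CPM with pLOC-*MALINC1*. The groups did not overlap in either line, and *CDH1* was lowest in DCIS.COM pLOC-empty. It rose in DCIS.COM by a log2 fold change of 0.59 (SE 0.047, adjusted p = 7.63e-07). In MCF10A the log2 fold change of 0.12 (SE 0.047, adjusted p = 0.0422) did not pass the threshold. The response was larger in DCIS.COM by 0.47 on the log2 scale (SE 0.067, adjusted p = 9.77e-05).

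*CDH2*, which encodes N-cadherin, lies on the minus strand of chromosome 18 from 25512843 to 25757910 (GRCh37). Its levels in MCF10A were 25.7 and 24.9 CPM with pLOC-empty and 8.80 and 8.88 CPM with pLOC-*MALINC1*. In DCIS.COM they were 12.5 and 11.5 CPM against 8.83 and 9.16 CPM. Both pLOC-*MALINC1* groups thus ended at nearly one level, from starting levels that differed between the lines. The log2 fold change was -1.51 (SE 0.081, adjusted p = 2.07e-08) in MCF10A, a 2.85-fold fall. In DCIS.COM it was -0.41 (SE 0.081, adjusted p = 0.00127), and the change differed between the lines by 1.10 (SE 0.11, adjusted p = 7.24e-06). The fall in DCIS.COM missed the threshold when pLOC-empty replicate 1 (-0.35, adjusted p = 0.0137) or pLOC-*MALINC1* replicate 1 (-0.38, adjusted p = 0.0131) was left out.

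*CDH3* encodes P-cadherin, a classical cadherin of basal epithelial cells. It was at 397 and 399 CPM in MCF10A pLOC-empty and at 548 and 519.7 CPM in pLOC-*MALINC1*. The DCIS.COM libraries held 214 and 210.0 CPM with pLOC-empty and 207 and 212 CPM with pLOC-*MALINC1*. The DCIS.COM groups overlapped, and the MCF10A groups did not. *CDH3* rose in MCF10A by 0.42 (SE 0.034, adjusted p = 7.25e-07). In DCIS.COM the change was -0.020 (95% interval -0.094 to 0.055, adjusted p = 0.672), and the lines differed by -0.44 (SE 0.048, adjusted p = 1.09e-05).

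Ratios of reads within a library do not depend on how the libraries were scaled, and they are given as a description with no test. *CDH2* had 40.7 and 39.4 reads per 1000 *CDH1* reads in MCF10A pLOC-empty and 12.3 and 13.4 in pLOC-*MALINC1*. In DCIS.COM it had 60.7 and 50.9 with pLOC-empty and 27.7 and 27.6 with pLOC-*MALINC1*. The ratio was lower in all 4 pLOC-*MALINC1* libraries than in any pLOC-empty library, through less *CDH2* in MCF10A and through both less *CDH2* and more *CDH1* in DCIS.COM. Per kilobase of transcript, *CDH2* made up 2.82% and 2.73% of the summed level of the 3 cadherins in MCF10A pLOC-empty and 0.799% and 0.863% in pLOC-*MALINC1*. In DCIS.COM these shares were 3.31% and 2.95% against 1.91% and 1.92%. *CDH1* and *CDH3* together thus held nearly all cadherin transcript of this set in every library. *CDH3* had 0.630 and 0.631 reads for each *CDH1* read in MCF10A pLOC-empty and 0.764 and 0.787 in pLOC-*MALINC1*, while in DCIS.COM it had 1.04 and 0.934 against 0.649 and 0.640. The makeup therefore moved towards *CDH3* in MCF10A and towards *CDH1* in DCIS.COM.

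**Figure D2:**
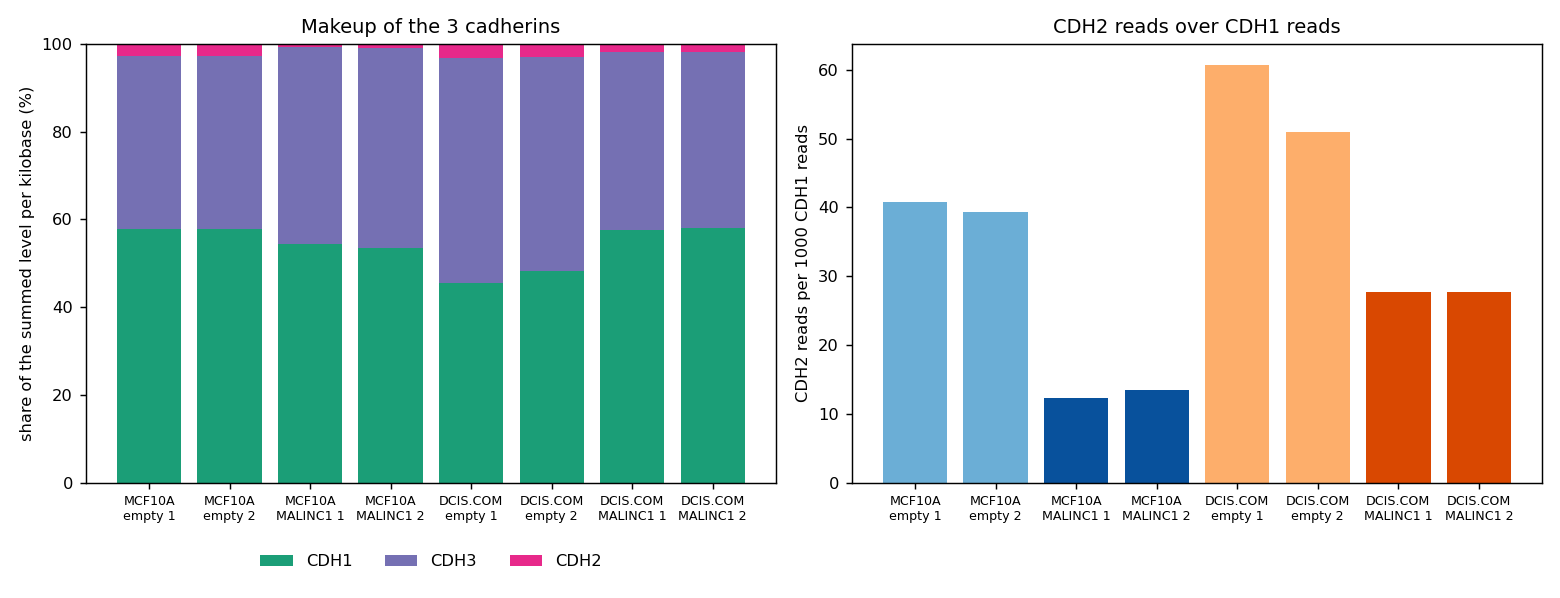
Left, share of *CDH1*, *CDH3* and *CDH2* in their summed level per kilobase (%, vertical axis) in each of the 8 libraries (horizontal axis). Right, *CDH2* reads per 1000 *CDH1* reads in the same libraries, between 12.3 and 13.4 in MCF10A pLOC-*MALINC1* and between 50.9 and 60.7 in DCIS.COM pLOC-empty.

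*EPCAM*, an epithelial surface protein and adhesion molecule, lies on the plus strand of chromosome 2 from 47572297 to 47614740. It was at 61.4 and 63.0 CPM in MCF10A pLOC-empty and at 97.4 and 92.6 CPM in pLOC-*MALINC1*, with no overlap. In DCIS.COM it was at 279 and 281 CPM and at 285 and 293 CPM. It rose in MCF10A by 0.61 (SE 0.036, adjusted p = 4.33e-08). In DCIS.COM the log2 fold change was 0.046 (95% interval -0.032 to 0.12, adjusted p = 0.318), and the difference between the lines was -0.56 (SE 0.050, adjusted p = 1.98e-06).

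*VIM* encodes vimentin, the intermediate filament protein of mesenchymal cells that basal-like breast lines also make. It lies on chromosome 10 from 17270240 to 17279592, on the plus strand. *VIM* was at 66.9 and 63.6 CPM in MCF10A pLOC-empty and at 32.4 and 35.9 CPM in pLOC-*MALINC1*. In DCIS.COM it was at 572 and 589 CPM with pLOC-empty and at 389 and 402 CPM with pLOC-*MALINC1*. The groups did not overlap, and *VIM* fell in both lines. The log2 fold change was -0.93 (SE 0.047, adjusted p = 1.20e-08) in MCF10A and -0.55 (SE 0.047, adjusted p = 1.40e-06) in DCIS.COM, and it differed between the lines by 0.38 (SE 0.066, adjusted p = 0.000480). Without pLOC-*MALINC1* replicate 2 the change in MCF10A was -1.01, past the 2-fold threshold. The lncRNA gene *VIM-AS1* shares 641 exon bases on the opposite strand, 29.8% of the canonical *VIM* transcript, and without a stated strand setting reads from both genes cannot be told apart. *VIM* had 1.09 and 1.01 reads for each *EPCAM* read in MCF10A pLOC-empty and 0.333 and 0.387 in pLOC-*MALINC1*. The corresponding ratios in DCIS.COM were 2.05 and 2.09 against 1.36 and 1.37, so the ratio was lower with *MALINC1* in both lines.

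*FN1* encodes fibronectin, a matrix glycoprotein that cells bind through integrins, and lies on the minus strand of chromosome 2 from 216225163 to 216300796. It was the only one of the 10 genes to change past the threshold in opposite directions. In MCF10A it was at 1489.6 and 1554 CPM with pLOC-empty and at 382 and 353 CPM with pLOC-*MALINC1*. In DCIS.COM it was at 39.1 and 40.9 CPM with pLOC-empty and at 72.7 and 71.3 CPM with pLOC-*MALINC1*. No library of one group reached the range of another, and the lines moved towards each other. *FN1* fell 4.14-fold in MCF10A (log2 fold change -2.05, SE 0.042, adjusted p = 1.06e-11). It rose 1.80-fold in DCIS.COM (0.85, SE 0.042, adjusted p = 1.18e-08), below the fold threshold. The responses differed by 2.90 (SE 0.060, adjusted p = 7.68e-12). In MCF10A *FN1* had 2.36 and 2.46 reads for each *CDH1* read with pLOC-empty and 0.533 and 0.534 with pLOC-*MALINC1*. The same ratios in DCIS.COM were 0.190 and 0.182 against 0.228 and 0.215.

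*SNAI2* (Slug), a repressor of *CDH1* that is normally made in basal mammary cells, was the most abundant of the 4 transcription factors in MCF10A. It lies on the minus strand of chromosome 8 from 49830157 to 49834299. Its levels were 89.1 and 84.7 CPM in MCF10A pLOC-empty and 64.5 and 73.9 CPM in pLOC-*MALINC1*. In DCIS.COM they were 16.1 and 16.2 CPM against 7.72 and 8.37 CPM. *SNAI2* fell in both lines without overlap. The log2 fold change was -0.33 (SE 0.069, adjusted p = 0.00158) in MCF10A and -1.004 (SE 0.069, adjusted p = 2.20e-07) in DCIS.COM, a 2.01-fold fall, and the lines differed by -0.67 (SE 0.098, adjusted p = 0.000118). The DCIS.COM call sits on the fold threshold. It was lost at -0.9995 without pLOC-empty replicate 2, at -0.95 without pLOC-*MALINC1* replicate 1, and under 3 other settings (-0.97 to -0.93), always with the direction kept. The MCF10A fall lost its call without pLOC-empty replicate 1 (-0.29, adjusted p = 0.0232) or pLOC-*MALINC1* replicate 1 (-0.23, adjusted p = 0.0270).

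*TWIST1*, a basic helix-loop-helix factor, was at 13.7 and 14.7 CPM in MCF10A pLOC-empty and at 8.80 and 9.86 CPM in pLOC-*MALINC1*. In DCIS.COM it was at 7.37 and 7.45 CPM and at 6.70 and 6.77 CPM. *TWIST1* fell in MCF10A by 0.61 on the log2 scale (SE 0.096, adjusted p = 0.000216). In DCIS.COM the log2 fold change was -0.14 (95% interval -0.35 to 0.074, adjusted p = 0.273). The difference between the lines, 0.47 (SE 0.14, adjusted p = 0.0128), did not pass the threshold here but did under 5 alternatives, with an adjusted p as low as 0.00563. The MCF10A fall lost its call when the 4 MCF10A libraries were fitted alone (adjusted p = 0.0114).

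*ZEB1* and *SNAI1*, zinc finger repressors of *CDH1*, were scarce. *ZEB1* had 69, 46, 68 and 51 reads in the MCF10A libraries, in the order of pLOC-empty replicates 1 and 2 and pLOC-*MALINC1* replicates 1 and 2, and 7, 7, 19 and 19 reads in DCIS.COM. *SNAI1* had 42, 35, 42 and 25 reads in MCF10A and 8, 8, 13 and 19 reads in DCIS.COM. With so few reads only large changes could have been seen. The log2 fold change of *ZEB1* was -0.20 (95% interval -0.65 to 0.25, adjusted p = 0.446) in MCF10A and 0.65 (95% interval 0.20 to 1.10, adjusted p = 0.0221) in DCIS.COM. That of *SNAI1* was -0.48 (95% interval -1.02 to 0.056, adjusted p = 0.120) and 0.25 (95% interval -0.29 to 0.79, adjusted p = 0.440). None of these 4 values passed the threshold. That of *ZEB1* in DCIS.COM ranged from 0.23 to 0.95 over the alternatives, and it passed under quantile normalization (0.95, adjusted p = 0.00348) and without a mean-variance trend (0.65, adjusted p = 0.00192).

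**Figure D3:**
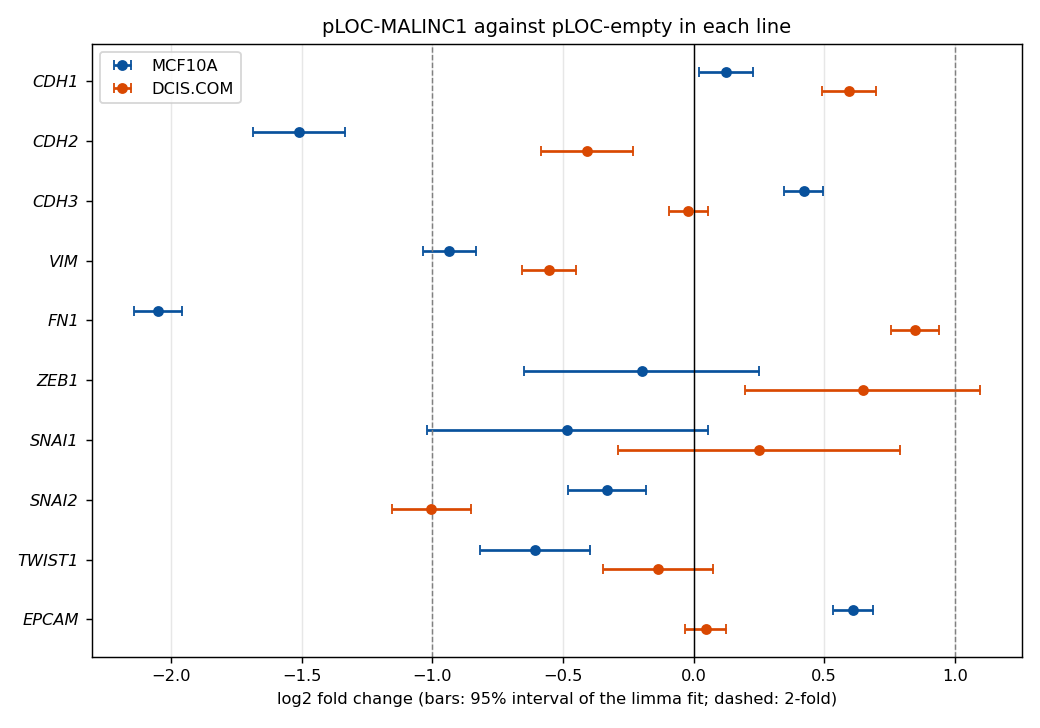
Log2 fold change of pLOC-*MALINC1* against pLOC-empty (horizontal axis) for each of the 10 genes (vertical axis) in MCF10A and DCIS.COM. Points are estimates, bars are 95% intervals of the limma fit and dashed lines mark 2-fold. *FN1* lies at -2.05 in MCF10A and at 0.85 in DCIS.COM, and the widest intervals are those of *ZEB1* and *SNAI1*.

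The lines were then compared with each other, with the vector held the same. Since these comparisons use the same 8 libraries, they are not independent of those above. With pLOC-empty, 8 of the 10 genes were DEGs between the lines, against 28.6% of all genes, and with pLOC-*MALINC1* also 8, against 26.6%. Without the fold threshold the counts were 10 and 9 of 10, against 73.9% and 73.0%. Because the members were chosen with earlier results of these data known, these shares describe the set and do not test it. *VIM* was 8.88-fold higher in DCIS.COM with pLOC-empty (log2 fold change 3.15, SE 0.047, adjusted p = 1.85e-14) and 11.6-fold higher with pLOC-*MALINC1* (3.53, adjusted p = 1.04e-14). *EPCAM* was also higher in DCIS.COM, by 4.50-fold (2.17, SE 0.036, adjusted p = 4.08e-14) and 3.04-fold (1.61, adjusted p = 6.06e-13). A mesenchymal filament gene and an epithelial surface gene were thus the pair that stood higher in DCIS.COM with both vectors.

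All other members were lower in DCIS.COM with pLOC-empty. *FN1* was 38.0-fold lower with pLOC-empty (log2 fold change -5.25, SE 0.042, adjusted p = 9.31e-17) and 5.10-fold lower with pLOC-*MALINC1* (-2.35, adjusted p = 1.19e-13). *SNAI2* was 5.35-fold lower (-2.42, SE 0.069, adjusted p = 5.11e-12) and 8.52-fold lower (-3.09, adjusted p = 6.53e-13). The gap between the lines was smaller with *MALINC1* for *FN1* and larger for *SNAI2*, which is the difference in response given above. *CDH1* was lower by 1.55 on the log2 scale (SE 0.047, adjusted p = 8.88e-12) and by 1.08 (adjusted p = 3.23e-10). *ZEB1*, which represses it, was lower too, with log2 fold changes of -2.50 (SE 0.21, adjusted p = 1.52e-07) and -1.66 (adjusted p = 8.75e-06). *SNAI1* had -1.81 (SE 0.25, adjusted p = 1.97e-05) and -1.07 (adjusted p = 0.00148). Its call with pLOC-*MALINC1* was lost without MCF10A replicate 1 (-0.93, adjusted p = 0.0173) or DCIS.COM replicate 1 (-0.83, adjusted p = 0.0183).

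*CDH2* was 2.11-fold lower in DCIS.COM with pLOC-empty (-1.07, SE 0.081, adjusted p = 5.86e-08), and with pLOC-*MALINC1* the libraries of the lines overlapped (0.024, 95% interval -0.15 to 0.20, adjusted p = 0.788). *CDH3* was lower by 0.91 on the log2 scale (adjusted p = 6.32e-11) with pLOC-empty, short of 2-fold, and by 1.35 (adjusted p = 1.91e-12) with pLOC-*MALINC1*. *TWIST1* was lower by 0.93 (adjusted p = 1.36e-06) and by 0.46 (adjusted p = 0.000695), and the latter call was lost without MCF10A pLOC-*MALINC1* replicate 2 (-0.38, adjusted p = 0.0110). When the library size was taken without the small RNAs *RN7SL1* and *RN7SL2*, which took 8.22% to 15.7% of the reads, the median of all genes moved to 0.14 and 0.18 in these comparisons, and *CDH1* with pLOC-*MALINC1* (-0.90) and *CDH2* with pLOC-empty (-0.97) fell short of 2-fold. So did *SNAI1* with pLOC-*MALINC1* (-0.91), and *TWIST1* with pLOC-*MALINC1* missed the p threshold (-0.29, adjusted p = 0.0160). The DEG call of *CDH1* with pLOC-*MALINC1* was also lost under quantile normalization. Its 95% interval in the main fit, -1.19 to -0.98, took in 2-fold. With a pseudocount of 1 CPM the scarce genes *SNAI1* (-0.86 with pLOC-empty and -0.49 with pLOC-*MALINC1*) and *ZEB1* (-0.90 with pLOC-*MALINC1*) were under 2-fold.

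**Figure D4:**
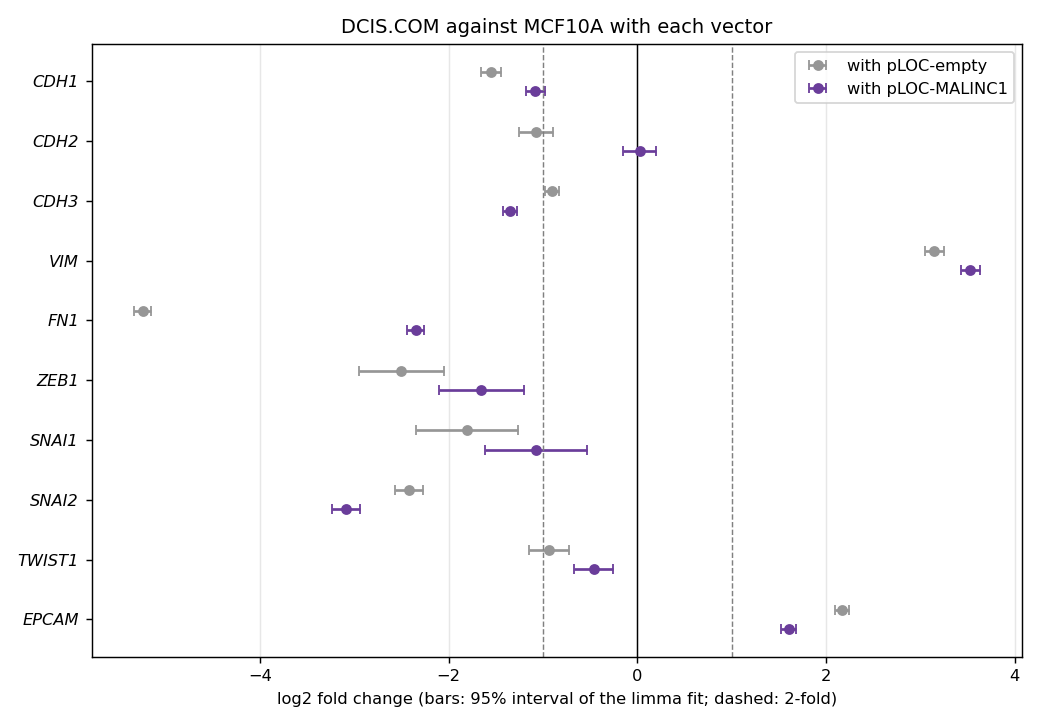
Log2 fold change of DCIS.COM against MCF10A (horizontal axis) for the 10 genes (vertical axis), with pLOC-empty and with pLOC-*MALINC1*. Points are estimates, bars are 95% intervals of the limma fit and dashed lines mark 2-fold. *VIM* and *EPCAM* lie to the right with both vectors, and *FN1* moves from -5.25 to -2.35.

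The responses of the lines to *MALINC1* were compared by a contrast of the 2 changes. Of the 10 genes, *CDH2* and *FN1* passed both thresholds for this difference, against 9.20% of all genes. Without the fold threshold 7 did, against 35.9%. They were *CDH1*, *CDH2*, *CDH3*, *EPCAM*, *FN1*, *SNAI2* and *VIM*. Without a mean-variance trend *VIM* missed the threshold (adjusted p = 0.0180) and *ZEB1* passed it (0.84, adjusted p = 0.00213). *CDH3* and *EPCAM* rose in MCF10A, and their changes in DCIS.COM did not pass the threshold. For *CDH1* the rise passed in DCIS.COM and not in MCF10A. *CDH2*, *VIM* and *SNAI2* fell in both lines, the first 2 further in MCF10A and *SNAI2* further in DCIS.COM.

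Levels of different genes were compared per kilobase of canonical transcript (CPM per kb). In MCF10A pLOC-empty the order was *FN1* (181), *CDH1* (131), *CDH3* (89.4), *EPCAM* (40.2), *SNAI2* (39.8), *VIM* (30.3), *TWIST1* (8.73), *CDH2* (6.30), *SNAI1* (0.879) and *ZEB1* (0.372). *EPCAM* and *SNAI2* did not differ beyond the spread of their libraries. With pLOC-*MALINC1* *FN1* came after *CDH1* (143), *CDH3* (120) and *EPCAM* (61.4), at 43.8 CPM per kb, and *SNAI2* (31.7) and *VIM* (15.9) followed. In DCIS.COM pLOC-empty the order began with *VIM* (269), *EPCAM* (181), *CDH3* (47.7) and *CDH1* (44.8), and *SNAI2* (7.42), *FN1* (4.77), *TWIST1* (4.54) and *CDH2* (2.98) were far lower. With pLOC-*MALINC1* *EPCAM* (187) and *VIM* (184) were level within the spread of their libraries, *CDH1* (67.6) passed *CDH3* (47.0), and *FN1* (8.58) passed *SNAI2* (3.69). *SNAI1* and *ZEB1* were last in every group.

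The genes around these members were counted in lists of the same pathway. Of 13 genes of the E-cadherin and catenin adhesion complex, 1 was a DEG in MCF10A and 0 were in DCIS.COM. It was *NECTIN1*, a nectin of adherens junctions, which rose by 1.42 (adjusted p = 1.81e-10). In DCIS.COM *NECTIN1* rose too, short of 2-fold (0.34, adjusted p = 5.07e-05). At any fold 6 genes of the list rose and 2 fell in MCF10A. In DCIS.COM 10 changed, of which 6 rose and 4 fell, the β-catenin gene *CTNNB1* (-0.47) among the latter. Over this list the median log2 fold change in MCF10A was 0.25, where that of all genes was 0.00, and in DCIS.COM it was 0.13, where that of all genes was 0.0089. Of 19 other cadherins 6 were in the table and 0 were DEGs with *MALINC1* in either line. Of these, 1 changed at any fold in MCF10A and 2 did in DCIS.COM. Between the lines 5 of the 6 were DEGs with both vectors, against 28.6% of all genes with pLOC-empty and 26.6% with pLOC-*MALINC1*. These 5 were chosen for mention after their values had been seen. Each had 2 reads or none in every library of 1 line, so it was in the table only through the other line. A difference between the lines was thus largely fixed in advance, and this count cannot be weighed against those shares. *CDH11*, *CDH13* and *CDH19* had 1 read or none in every MCF10A library, and in DCIS.COM pLOC-empty they stood at 10.1, 16.8 and 153.8 CPM, while *CDH4* (9.66 CPM in MCF10A pLOC-empty) and *CDH16* (3.30 CPM) had 2 reads or none in every DCIS.COM library.

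Among 14 of 18 other EMT transcription factors, 2 rose and 2 fell as DEGs in MCF10A, and 2 rose and 1 fell in DCIS.COM. The median was 0.099 and 0.31. *HMGA2*, an architectural chromatin protein, rose in MCF10A by 2.41 (adjusted p = 9.81e-10) and stood at 0.0062 (adjusted p = 0.968) in DCIS.COM. *SOX9* rose in MCF10A by 1.08 (adjusted p = 5.23e-09) and, short of 2-fold, in DCIS.COM by 0.47 (adjusted p = 9.10e-06). *ZEB2*, the relative of *ZEB1*, had 165 and 119 reads in MCF10A pLOC-empty and 62 and 55 in pLOC-*MALINC1*, and fell (-1.50, adjusted p = 0.00172). It had 3 reads or fewer in every DCIS.COM library. In DCIS.COM *FOXQ1* (1.20, adjusted p = 2.06e-07) and *LEF1* (1.22, adjusted p = 0.00580), a partner of β-catenin, rose and *KLF8* (-1.53, adjusted p = 5.48e-05) fell. *KLF8* was scarce there, with 19 and 29 reads in pLOC-empty and 12 and 11 in pLOC-*MALINC1*. *FOXQ1* rose in MCF10A too, short of 2-fold (0.33, adjusted p = 0.00509).

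The regulators of the epithelial state, of which 15 of 16 were measured, gave 3 DEGs in MCF10A and 2 in DCIS.COM, and all of them rose. The medians were 0.059 and 0.35. *GRHL3*, a grainyhead factor of epithelial differentiation, rose in both lines, by 1.43 (adjusted p = 5.83e-06) and 1.52 (adjusted p = 4.35e-06). *TP63*, the master regulator of basal epithelium, rose in MCF10A by 3.04 (adjusted p = 1.08e-11) and stood at -0.19 (adjusted p = 0.0291) in DCIS.COM. *OVOL1*, a repressor of EMT factors, rose in DCIS.COM by 1.01 (adjusted p = 7.99e-06). Of 23 measured epithelial surface and junction genes, 0 were DEGs in MCF10A, where 8 rose and 3 fell at any fold. In DCIS.COM 1 rose and 1 fell as DEGs, and the surface glycoprotein gene *CD24* was the one that rose (1.02, adjusted p = 6.49e-08). In MCF10A *CD24* fell, short of 2-fold (-0.49, adjusted p = 3.26e-05). The list medians were 0.092 and 0.0040.

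Of 24 measured mesenchymal matrix and cytoskeleton genes, 2 rose and 6 fell as DEGs in MCF10A, and 1 rose and 8 fell in DCIS.COM, with medians of -0.27 and -0.53. *VCAN*, the proteoglycan versican, had 364 and 368 reads in DCIS.COM pLOC-empty and 12 and 13 in pLOC-*MALINC1*, and fell by 5.31 (adjusted p = 6.89e-11). *S100A4* (-2.44, adjusted p = 1.64e-11), a calcium-binding protein of motile cells, and *COL6A1* (-2.08, adjusted p = 4.67e-05) also fell there, while the intermediate filament gene *NES* rose (1.85, adjusted p = 0.00794). *NES* had 19 and 10 reads in DCIS.COM pLOC-empty and 77 and 97 in pLOC-*MALINC1*. The receptor kinase gene *AXL* rose in MCF10A (2.50, adjusted p = 2.08e-07) and fell in DCIS.COM (-2.05, adjusted p = 1.48e-06). *FBN1*, which encodes the microfibril protein fibrillin, fell in MCF10A (-1.57, adjusted p = 4.33e-09) and rose in DCIS.COM (0.66, adjusted p = 8.91e-06), the directions that *FN1* took.

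Of 14 measured fibronectin receptors and matrix assembly genes, 0 rose and 2 fell in MCF10A, and 2 rose and 3 fell in DCIS.COM, with medians of -0.32 and -0.057. *TNS1*, a tensin that links fibronectin-bound integrins to actin, fell in MCF10A (-1.80, adjusted p = 3.33e-06) and rose in DCIS.COM (1.61, adjusted p = 1.08e-05). In DCIS.COM *TNS1* was scarce, with 5 and 4 reads in pLOC-empty and 27 and 27 in pLOC-*MALINC1*. The integrin gene *ITGB3* fell in MCF10A (-1.78, adjusted p = 9.46e-06), from 42 and 33 reads to 11 and 12. In DCIS.COM *ITGB8* rose (1.11, adjusted p = 1.13e-08), and *FBLN1* (-3.39, adjusted p = 1.53e-12), which encodes the fibronectin-binding fibulin, the transglutaminase gene *TGM2* (-2.97, adjusted p = 1.32e-08) and *ITGA4* (-1.56, adjusted p = 0.000202) fell. *ITGA4* was scarce there, with 22 and 23 reads in pLOC-empty and 14 and 8 in pLOC-*MALINC1*. Short of 2-fold, *ITGB8* rose in MCF10A too (0.68, adjusted p = 7.65e-07). There *FBLN1* (-0.75, adjusted p = 8.17e-07) and *TGM2* (-0.93, adjusted p = 0.000250) also fell. None of 18 corepressors and turnover genes of the Snail factors and none of 16 cleavage and turnover genes of E-cadherin and EPCAM were DEGs in either line. With 5.50% of all genes called in MCF10A and 4.53% in DCIS.COM, lists of this size can hold none. At any fold 8 and 5 genes of these lists changed in MCF10A, against 39.6% of all genes, and 7 and 6 in DCIS.COM, against 33.2%.

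**Figure D5:**
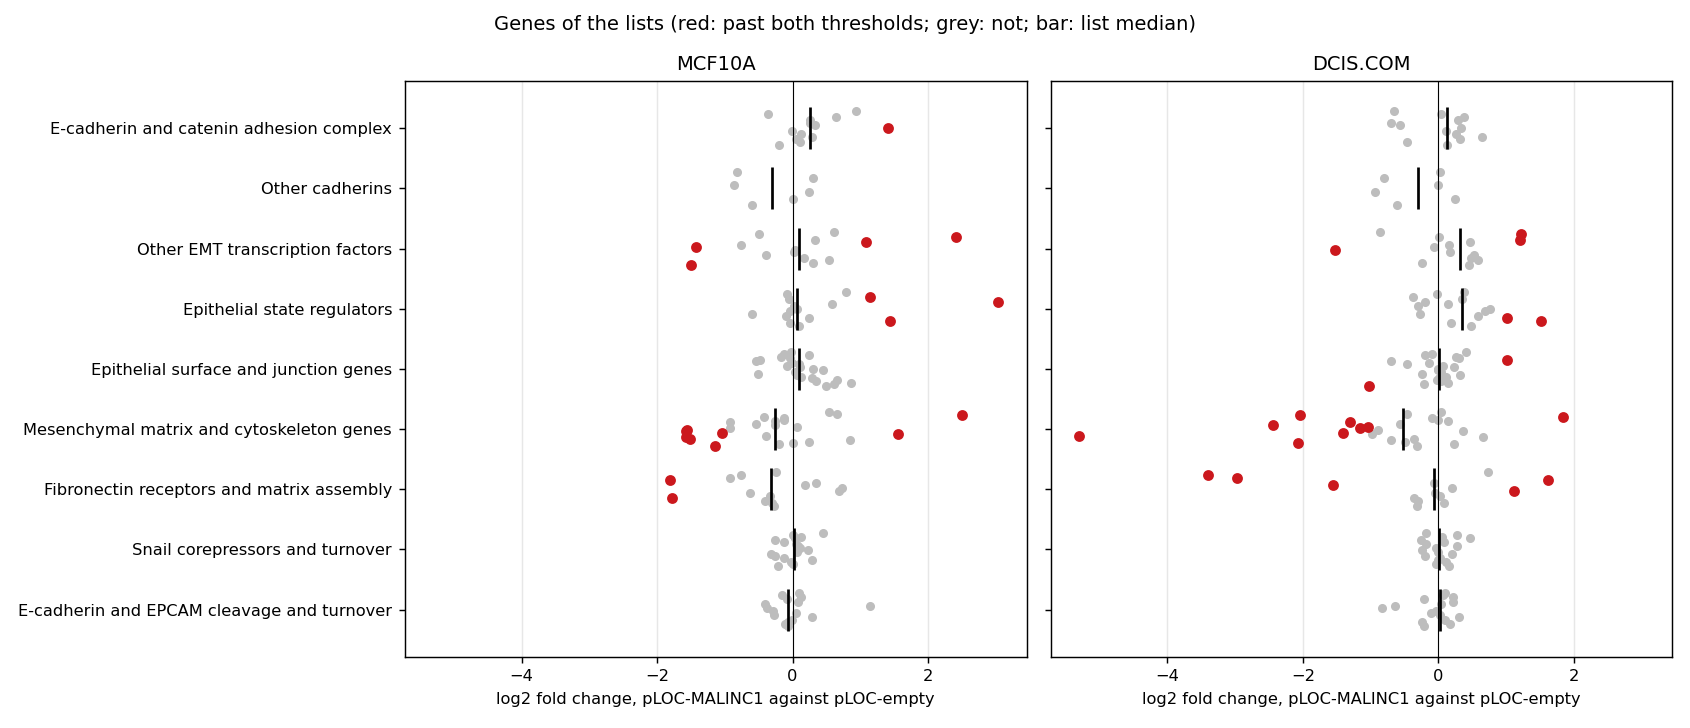
Log2 fold change of pLOC-*MALINC1* against pLOC-empty (horizontal axis) for each measured gene of 9 lists (vertical axis), in MCF10A on the left and DCIS.COM on the right. Red points passed both thresholds, grey points did not, and bars are list medians. The red points of the epithelial state regulators lie to the right in both lines, and *VCAN* is the point at -5.31.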

How the data were processed

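Expression was measured by RNA-seq in 8 libraries, 2 for each combination of line and vector, as the sample titles give them. The study's methods describe RNA from subconfluent plates, paired-end sequencing, alignment to the hg19 genome by Rsubread, and read counting over UCSC gene models by featureCounts. The authors deposited normalized log2 CPM, obtained with edgeR. The strand setting, the filter and tool versions are not given in the sources used here. The values carry a prior count of 2, and whole reads were recovered from them (100% within 0.05 of a whole read). CPM in the text are without the prior count, while log2 fold changes were fitted on the deposited values and understate changes of scarce genes.

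All 13842 genes had at least 0.5 CPM in at least 2 libraries and entered the model, run in limma 3.58.1 under R 4.3.3 (contrasts after lmFit, eBayes with a trend), with a mean per group, 5 contrasts and Benjamini-Hochberg adjustment. The members and lists were chosen with earlier results of these data known. Named are the 10 members and, from each list, the DEGs of the *MALINC1* comparisons or, where over 6, the 6 with the largest change and at least 1 CPM in the higher group. Some genes under this rule are not reported here. For *CDH2*, *FN1* and *SNAI2* the 3 genes with the most similar levels are named. Positions and lengths are those of GENCODE on GRCh37. The fit was tested on simulated data. Alternatives changed the pseudocount, filter, scaling, model and thresholds and left out each library. Summaries used pandas 2.3.3 and numpy 2.4.6 in Python 3.11.15, and plots matplotlib 3.10.9.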

Additional observations from a re-analysis of the deposited data

Results flagged for a closer look

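For 7 of the 10 genes the response to *MALINC1* differed between the lines by a contrast of the 2 changes (limma, Benjamini-Hochberg adjusted p below 0.01 over all genes), which marks them for a closer look. Of all genes 35.9% passed the same test, so a differing response was common and does not single these genes out. A positive value means that the log2 fold change was higher in DCIS.COM than in MCF10A. The difference was 2.90 for *FN1*, 1.10 for *CDH2*, 0.47 for *CDH1* and 0.38 for *VIM*. It was -0.67 for *SNAI2*, -0.56 for *EPCAM* and -0.44 for *CDH3*. The difference for *VIM* missed the threshold without a mean-variance trend (adjusted p = 0.0180). For *FN1* both libraries with *MALINC1* were lower than both controls in MCF10A and higher than both controls in DCIS.COM.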

How the results depend on the processing

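The 2 DEGs among the members in MCF10A, *CDH2* and *FN1*, were DEGs under every alternative that kept the 2-fold threshold. In DCIS.COM the count of 1 (*SNAI2*) became 0 with a pseudocount of 0.5 or 1 CPM and with a library size without *RN7SL1* and *RN7SL2*, and 2 when tested against a 1.5-fold change. Leaving out 1 library gave 0 to 1. At any fold change the counts were 7 in MCF10A, 5 in DCIS.COM and 7 for the difference between the lines. Over all genes the DEGs of 761 in MCF10A, 627 in DCIS.COM, 3959 and 3686 between the lines (pLOC-empty and pLOC-*MALINC1*) and 1273 for the difference became 5485, 4592, 10230, 10102 and 4972 at any fold change, and 367, 307, 2355, 2086 and 750 among genes with a mean of at least 5 CPM, where *ZEB1* and *SNAI1* were not tested. With a pseudocount of 1 CPM there were 416 in MCF10A and 368 in DCIS.COM. Of 990 alternative values of the members' log2 fold changes, 971 kept their direction and their side of the DEG thresholds, and 23 crossed the adjusted p threshold taken alone. Many of the 990 could not move. Other filters, the fit without a trend, the replicate block and leaving out a library of another group do not alter a fold change. The fit without a filter repeated the main one, since all genes had passed. The 971 are therefore no measure of robustness. The change of *CDH2* between the lines with pLOC-*MALINC1* reversed to -0.0051 under quantile normalization and ranged from -0.0024 to 0.051 with 1 library left out, and that of *CDH3* in DCIS.COM reversed to 0.015 with the library size without *RN7SL1* and *RN7SL2*. With the 4 libraries of its own comparison alone, the any-fold calls of *SNAI2* (adjusted p = 0.0322) and *TWIST1* (0.0114) in MCF10A and of *CDH2* in DCIS.COM (0.0242) were lost, and without a mean-variance trend that of *SNAI2* in MCF10A was (0.0180). The cause of these shifts was not tested.

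Same-numbered replicates did not deviate together (correlations of -0.15 in MCF10A and 0.11 in DCIS.COM). The replicate block left the members' counts at 2, 1, 8, 8 and 2 and gave 759, 634, 3962, 3690 and 1278 DEGs over all genes. A crossed replicate block in MCF10A alone, added after the data had been seen, gave 455 DEGs, and 2 of the members' 7 calls at any fold were lost. The fit on 4 libraries alone was not possible for the difference between the lines. Depth limits *ZEB1* and *SNAI1*, with counting errors of 9.17% to 26.7% on the summed reads of a group.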

Other observations

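The genes whose log2 CPM followed a member most closely over the 8 libraries, among 10768 genes with at least 5 CPM on average, are given as a description. The 8 points are pairs of libraries from 4 groups and are not independent. *FN1* was followed by *PROS1* (Pearson's r = 0.999), *FAM111A* (0.998) and *ASAP3* (0.998). Of these, *PROS1*, the gene of the vitamin K-dependent plasma protein S, changed with *MALINC1* by -1.35 (MCF10A) and 0.55 (DCIS.COM) on the log2 scale, while for *ASAP3* these values were -1.56 and 0.86. For *FAM111A* they were -0.50 and 0.18, smaller than for *FN1*. *CDH2* was followed by *CNPY3* (0.989), *ZNF519* (0.980) and *ARNT* (0.979), and *SNAI2* by *METTL9* (0.999), *SARAF* (0.999) and *C4orf33* (0.998). The correlation compares the order and spacing of the levels and not the size of the changes, and except for *ZNF519* in MCF10A (-1.32) these 6 genes had values between -0.44 and -0.029. For *ZNF519* in DCIS.COM the value was -0.15.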
